A study of Mus musculus with 15 samples.

Results

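Day 7 after bleomycin was compared with day 0 in whole lungs of C57BL/6 mice, over 8 of the 15 RNA-seq libraries of a time course: the 4 titled day 7 and the 4 titled day 0. The study's methods give male mice of 10 to 12 weeks. Bleomycin, an antibiotic that breaks DNA strands, was put into the trachea under anaesthesia with Avertin at 5 U/kg, and the lungs were taken 7 days later. Of the day 0 libraries, 3 carry an untreated label. The treatment label of day 0 replicate 4 names bleomycin although its title calls it a control, so it was kept at day 0 by its title and left out in an alternative fit. The remaining 7 libraries, of days 14 and 21, entered the same fit and helped to estimate the spread. All animals were of 1 strain and sex, the lungs were not sorted, and a day 0 animal given the vehicle alone is not named in the labels.

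The first week after bleomycin is known as the inflammatory phase of the model. Damaged epithelium and resident macrophages release chemokines, which draw monocytes from the blood. The monocytes become macrophages in the tissue, while alveolar type 2 cells divide and pass through a keratin-rich transitional state on the way to type 1 cells. Neutrophils are known to arrive and leave early. Fibroblasts begin to lay down collagen in the same period, and the dense scar follows in the weeks after.

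Total counts of the 8 libraries lay between 15652008 and 18020661. Markers of the main lung cell types were read in all of them: Sftpc of type 2 cells at 15734 to 25096 CPM (counts scaled to the size of the library) at day 0 and 8189.6 to 16309 CPM at day 7, Ager of type 1 cells at 1995 to 2991 and 2248 to 2643 CPM, and Marco of alveolar macrophages at 18.96 to 29.7 and 25.4 to 52.6 CPM. Values below are CPM scaled by TMM library factors, errors on CPM are SD with n = 4, errors on log2 fold changes are SE, and p-values come from the quasi-likelihood test of edgeR, adjusted by Benjamini-Hochberg across 17457 genes. A gene was called when its adjusted p was under 0.05 and its fold change over 1.5. Of all genes tested 16.1% were called, 8.78% higher and 7.36% lower at day 7, and the median log2 fold change was 0.01. The share of counts from mitochondrial genes was 2.28% and 2.31% in day 0 replicates 1 and 2, 4.22% and 4.045% in day 0 replicates 3 and 4, and 2.03% to 2.15% at day 7. Beside the counts of the main lists stands the count from the libraries of lower share alone, 4 of day 7 against day 0 replicates 1 and 2, where 12.8% of 16708 genes were called, 7.54% higher and 5.27% lower. The part of this share in the results was not tested beyond that fit and one that took the share as a covariate (the covariate fit). Where day 14 is set against day 7, the share of all genes called was 6.00%, 2.77% higher and 3.23% lower at day 14, and these counts changed more when single libraries were left out.

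**Figure D1:**
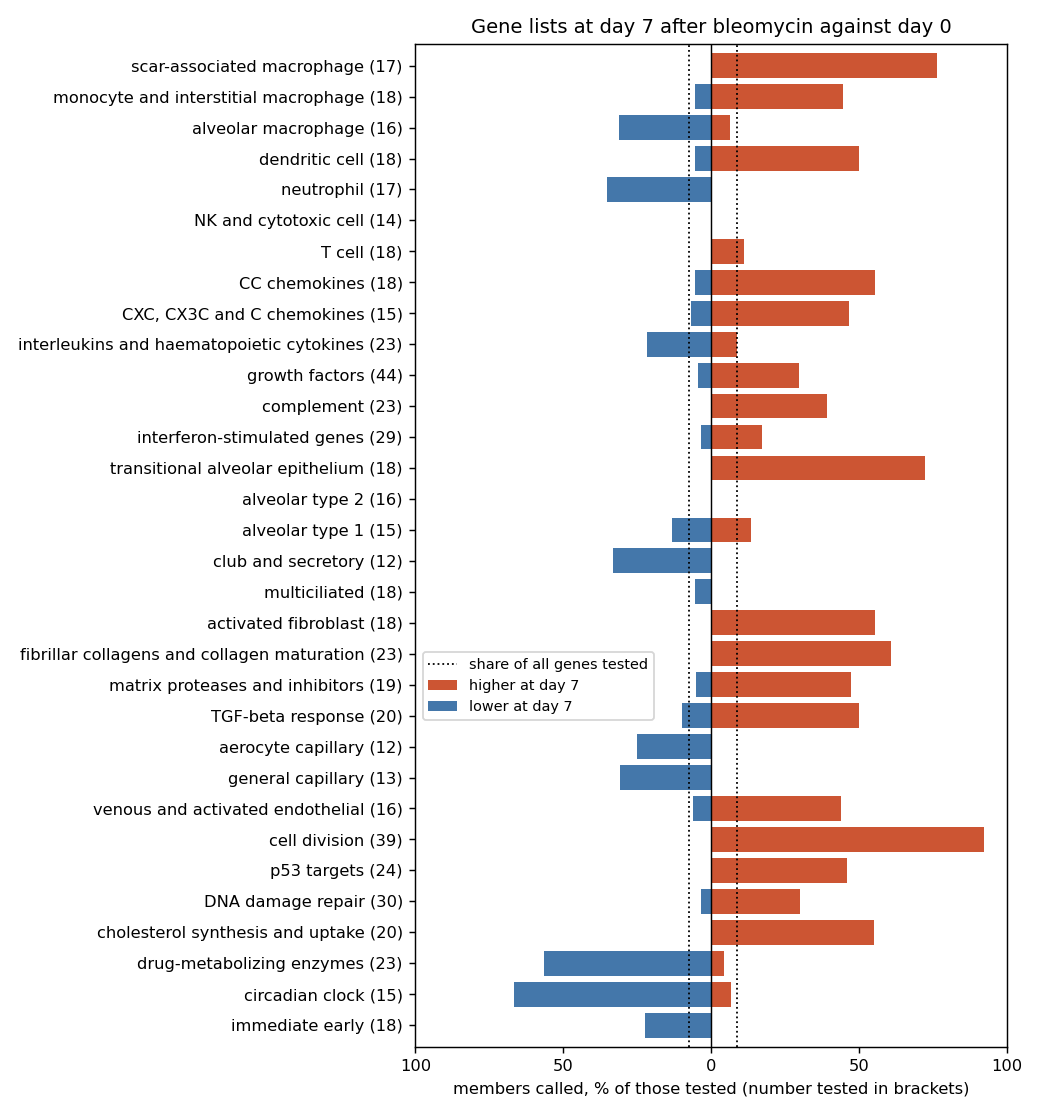
Members of 32 gene lists called at day 7 against day 0, as a percentage of the members tested, to the right where higher at day 7 and to the left where lower. The dotted lines stand at the shares of all genes tested, 8.78% higher and 7.36% lower, and the cell division, scar-associated macrophage and transitional epithelium lists reach farthest to the right, the circadian clock and drug-metabolizing lists farthest to the left.

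Macrophage markers differed by list. Genes of the macrophages that gather around scar tissue rose, with 13 of 17 members tested called higher and 0 lower, a median log2 fold change of 1.20, and 13 higher in the libraries of lower mitochondrial share. Mmp12, the macrophage elastase that digests elastic fibres, stood at 4.85, 4.11, 4.19 and 4.24 CPM in the day 0 libraries and at 172, 177, 94.1 and 55.9 CPM in the day 7 libraries, a log2 fold change of 4.84 ± 0.52 (adjusted p = 4.17e-05). Day 7 replicate 4 was the lowest of its day for Mmp12 and still lay far above all of day 0. Trem2, a lipid receptor of such macrophages (ENSMUSG00000023992, chr17:48346401-48354147 on mm10), had 3.75, 2.6001, 5.52 and 5.52 CPM at day 0 and 44.6, 36.6, 31.3 and 22.7 CPM at day 7, a log2 fold change of 2.95 ± 0.29 (adjusted p = 2.14e-05). The groups did not overlap. Spp1, the secreted matrix protein osteopontin, went from 60.6 ± 21.7 to 534 ± 156 CPM (log2 fold change 3.14 ± 0.42, adjusted p = 0.000148). Gpnmb, a membrane glycoprotein of lipid-laden macrophages, rose from 22.5 ± 5.44 to 109 ± 23.7 CPM. The summed level of the whole list was 1865 to 2219 CPM at day 0 and 4130.2 to 5591 CPM at day 7. In whole tissue, more or fewer cells of a type and more or less RNA per cell cannot be told apart.

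Markers of monocytes and interstitial macrophages rose in part. The list had 8 of 18 members higher and 1 lower, with 9 and 1 in the libraries of lower share and 5 and 0 in the covariate fit. The 3 chains of C1q, the complement component that tissue macrophages make, lie side by side on chromosome 4 and rose together. C1qb had 30.4, 33.9, 26.7 and 29.8 CPM at day 0 and 229, 160.2, 143 and 148 CPM at day 7, a log2 fold change of 2.49 ± 0.28 (adjusted p = 4.87e-05). C1qa and C1qc changed by 2.23 ± 0.29 and 2.31 ± 0.30 on the log2 scale, and no library of either chain crossed into the other day. Fcgr1, the high-affinity IgG receptor, rose from 6.28 ± 0.736 to 17.1 ± 4.02 CPM (adjusted p = 0.000263). The receptors that define blood monocytes passed no test: Ccr2, which binds Ccl2, had 92.1, 79.1, 31.1 and 30.3 CPM at day 0 and 154, 91.6, 105 and 64.6 CPM at day 7 (log2 fold change 0.84 ± 0.40, adjusted p = 0.138), and its 2 day 0 libraries of lower mitochondrial share lay within the range of day 7. Cx3cr1, the fractalkine receptor, had a log2 fold change of 1.08 ± 0.43 (adjusted p = 0.0738). The member called lower was Nr4a1, a nuclear receptor of patrolling monocytes that also stands among the immediate early genes. It was not called in the libraries of lower share, where the member lower was Lyve1, nor in the covariate fit or by voom. Ly6c2, a surface protein of classical monocytes, had 7.53 to 23.9 CPM at day 0 and 12.2 to 28.1 CPM at day 7.

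Among markers of resident alveolar macrophages, the surfactant-clearing cells of the airspace, 5 of 16 were lower and 1 was higher, against 5 and 2 in the libraries of lower share and 3 and 0 in the covariate fit. Krt79, a keratin that alveolar macrophages express, fell from 28.9, 41.3, 34.1 and 35.1 CPM in the day 0 libraries to 10.99, 4.07, 13.02 and 8.74 CPM in the day 7 libraries, by 1.92 ± 0.39 on the log2 scale (adjusted p = 0.00308). Ear1, an eosinophil-type ribonuclease, fell from 16.8, 16.02, 18.5 and 16.9 to 4.98, 4.41, 4.83 and 2.97 CPM, by 1.99 ± 0.35 on the log2 scale (adjusted p = 0.00111), with the limit that its near-identical copy Ear2 shares reads that the counting left out. Ear2 itself, named after its values were seen, fell by 0.91 ± 0.22 (adjusted p = 0.00726). Fabp1, a fatty acid carrier, fell from 7.92 ± 1.66 to 1.14 ± 1.14 CPM (adjusted p = 0.00676). Krt79, Ear1 and Fabp1 had every day 7 library below every day 0 library. Other defining markers did not follow: Pparg, the master transcription factor of these cells, had 12.1 to 14.4 CPM at day 0 and 11.8 to 13.5 CPM at day 7, and Siglecf, a sialic acid receptor, had a log2 fold change of -0.47 ± 0.29 (adjusted p = 0.239). Itgax, the integrin chain CD11c that dendritic cells also carry, was the member called higher, at 68.7 ± 8.37 CPM at day 0 and 120.2 ± 32.3 CPM at day 7 (adjusted p = 0.039). It was called in the full fit and without day 7 replicate 2 or 4, and was not called without any other single library of the 8.

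Neutrophil genes were lower in part at day 7. Of 17 members tested 6 were lower and 0 higher, the median log2 fold change was -1.11, and 8 were lower in the libraries of lower share, while 2 were lower in the covariate fit. The median was -1.49 in the libraries of lower share and -1.16 in the covariate fit. Under glmTreat 1 member was lower. S100a8 and S100a9 form calprotectin, the most abundant protein of neutrophil cytosol. S100a9 had 239, 328, 253 and 196 CPM at day 0 and 29.3, 75.7, 43.3 and 115 CPM at day 7, and fell by 1.95 ± 0.53 on the log2 scale (adjusted p = 0.0153). S100a8 had 89.8, 119.8, 94.9 and 72.02 CPM at day 0 and 10.3, 32.3, 18.02 and 43.5 CPM at day 7 (adjusted p = 0.0139). Day 7 replicates 2 and 4 were the nearest to day 0 for both, without overlap. Csf3r, the receptor for granulocyte colony-stimulating factor, fell by 1.899 ± 0.34 on the log2 scale (adjusted p = 0.0014). The interleukin-8 type receptor Cxcr2 had 68.4, 117, 47.7 and 23.1 CPM at day 0 and 10.2, 26.3, 12.1 and 26.6 CPM at day 7 (adjusted p = 0.0104). Day 0 replicate 4 lay within the day 7 range for Cxcr2. Ly6g, the antigen used to sort mouse neutrophils, was low, with 24, 19, 23 and 37 counts at day 0 and 8, 2, 14 and 4 counts at day 7, without overlap in CPM but not called (adjusted p = 0.126). The summed level of the list was 645 to 1251 CPM at day 0 and 311 to 621 CPM at day 7. Red cell genes moved in the same direction, with 3 of 8 lower, all 3 of them globin genes with near-identical copies, 5 lower without day 0 replicate 3, and 8 lower in the libraries of lower share. Their summed level was 1339 to 4472 CPM at day 0 and 535 to 1433 CPM at day 7. The part of blood left in the lungs in the neutrophil counts was not tested.

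**Figure D2:**
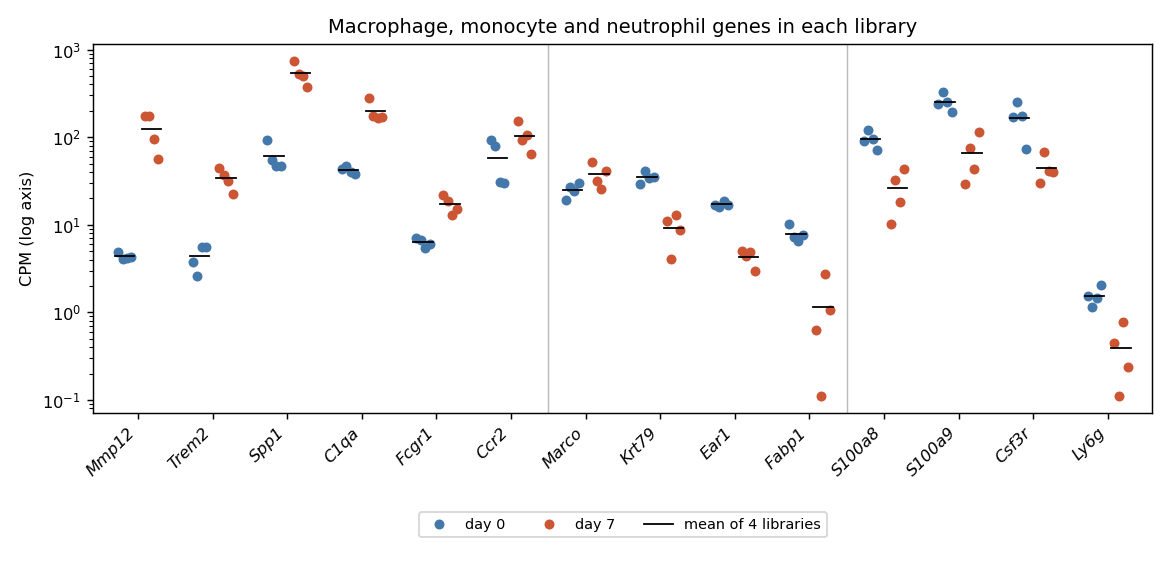
Levels of macrophage, monocyte and neutrophil genes in each of the 4 libraries of day 0 (blue) and day 7 (red), in CPM on a log axis, with a bar at the mean of each day. Mmp12, Trem2, Spp1, C1qa and Fcgr1 lie higher at day 7 without overlap, Krt79, Ear1, Fabp1, S100a8, S100a9 and Csf3r lie lower without overlap, and Ccr2 and Marco overlap.

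Dendritic cell genes rose in part, 9 of 18 members higher and 1 lower, with 7 and 1 in the libraries of lower share. With the share as a covariate 4 were higher and 0 lower. No list of mature dendritic cells alone was tested. The largest rises in the list were those of Ccl17, Fscn1 and Ccl22, which mature dendritic cells are known to express. Fscn1, the actin-bundling protein of their dendrites, had 16.96, 18.3, 13.3 and 14.95 CPM at day 0 and 83.4, 57.3, 79.3 and 47.6 CPM at day 7, a log2 fold change of 2.08 ± 0.24 (adjusted p = 4.87e-05). Ccl17, a chemokine that draws Ccr4-bearing T cells, had 3.11, 5.32, 2.79 and 4.02 CPM at day 0 and 24.4, 23.4, 22.3 and 20.4 CPM at day 7, a log2 fold change of 2.57 ± 0.18 (adjusted p = 8.09e-07). The day 7 libraries of Ccl17 lay close together, all above day 0. Ccl22, which binds the same receptor, rose by 1.82 ± 0.31 on the log2 scale (adjusted p = 0.000843). In contrast to these, Clec9a, a dead-cell receptor of cross-presenting dendritic cells, fell by 1.09 ± 0.26 on the log2 scale (adjusted p = 0.00855), a call lost in the covariate fit and under glmTreat. Among MHC class II presentation genes 3 of 11 were higher, 2 in the libraries of lower share and 1 in the covariate fit and under glmTreat, while 7 were higher without day 7 replicate 2. The defining gene H2-Ab1 had 394, 444, 406 and 325 CPM at day 0 and 986, 330.0, 881 and 591 CPM at day 7 (adjusted p = 0.0863). Day 7 replicate 2 lay within the day 0 range, and the other 3 day 7 libraries lay above it. Ctss, the cathepsin that trims the invariant chain, rose from 175 to 222 CPM at day 0 to 471 to 815 CPM at day 7 (adjusted p = 0.000214).

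Few lymphocyte genes were called at this time. Of 18 T cell genes 2 were higher and 0 lower, a share close to that of all genes. Il2ra, the interleukin-2 receptor chain of activated and regulatory T cells, rose from 1.82 ± 0.303 to 5.33 ± 2.05 CPM (log2 fold change 1.55 ± 0.36, adjusted p = 0.00679), a call lost in the covariate fit and under glmTreat. The other was Tnfrsf4, the costimulatory receptor OX40, with a log2 fold change of 1.17 ± 0.39 (adjusted p = 0.0366). Tnfrsf4 lost its call without day 0 replicate 1, 2 or 4, or day 7 replicate 1 or 3, which left a count of 1. Of 14 natural killer and cytotoxic genes 0 were called by edgeR in the fit to all libraries, where 5 had an unadjusted p under 0.05, 2 were called by DESeq2 and 3 by voom, and 5 were lower in the libraries of lower share, where Gzma, a granule protease, changed by -1.43 on the log2 scale (adjusted p = 0.0223) against -1.27 ± 0.50 (adjusted p = 0.0727) in all libraries. Among 14 B and plasma cell genes the member called higher was Sdc1, the proteoglycan syndecan-1 that plasma cells and epithelium share, from 272 ± 23.9 to 479.8 ± 47.7 CPM (adjusted p = 0.000484). Its call was lost under glmTreat. In this list 0 were lower and the median log2 fold change was -0.55. The libraries of lower share and the covariate fit each gave 1 higher and 1 lower. Without day 0 replicate 2 the count higher was 2. Up to 2 were lower without day 0 replicate 3 or 4 or day 7 replicate 3. Of 15 markers of mast cells, eosinophils, basophils and group 2 innate lymphoid cells 7 were high enough to test, and none was called by edgeR in the fit to all libraries (2 at an unadjusted p under 0.05, 1 by DESeq2 and 0 by voom).

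Chemokines were the secreted factors that rose most often. Of 18 CC chemokines tested, of 20 listed, 10 were higher and 1 lower, with a median log2 fold change of 1.14, against 10 and 0 in the libraries of lower share. Ccl2, the chief monocyte attractant (ENSMUSG00000035385, chr11:82035571-82037453, plus strand), had 0.453, 0.847, 0.381 and 0.781 CPM at day 0 and 16.8, 28.9, 10.2 and 7.67 CPM at day 7, a log2 fold change of 4.66 ± 0.58 (adjusted p = 8.48e-05). Its neighbour Ccl7 (chr11:82045712-82047525), which shares the receptor Ccr2, had 0.518, 0.786, 0.1905 and 0.725 and 9.97, 16.5, 6.097 and 5.71 CPM, a log2 fold change of 4.08 ± 0.50 (adjusted p = 8.48e-05). Within day 7 both were highest in replicate 2 and lowest in replicate 4, and no day 7 library overlapped day 0. Ccl8 (chr11:82115185-82116799), made by interstitial macrophages, had 2.01, 1.15, 1.08 and 1.17 CPM at day 0 and 22.1, 13.7, 14.4 and 15.4 CPM at day 7, a log2 fold change of 3.600 ± 0.51 (adjusted p = 0.000233). Ccl11 and Ccl12 lie between Ccl7 and Ccl8 on chromosome 11, were named for that position after their values were seen, and changed by 1.36 ± 0.33 and 2.58 ± 0.37 on the log2 scale, so that the 5 tested genes from Ccl2 to Ccl8 were called higher. Ccl11 was not called in the covariate fit or under glmTreat. Ccl1, which lies past Ccl8, had 0 counts in the 4 day 0 libraries and 9, 7, 5 and 3 counts at day 7, too few to be tested. Ccl20, which draws Ccr6-bearing cells to mucosa, rose from 0.186 ± 0.143 to 1.66 ± 0.619 CPM (adjusted p = 0.000721). The neutrophil and lymphocyte attractants Ccl3 and Ccl4 were not called, with log2 fold changes of 0.93 ± 0.42 (adjusted p = 0.118) and 0.201 ± 0.46 (adjusted p = 0.784). The member that fell was Ccl27a, a skin-type T cell chemokine, by 1.11 ± 0.27 on the log2 scale (adjusted p = 0.00843), and it was not called in the libraries of lower share.

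The CXC, CX3C and C chemokines had 7 of 15 higher and 1 lower, against 10 and 1 in the libraries of lower share. Cxcl9 and Cxcl10, interferon-induced ligands of Cxcr3 on T cells, gave the largest rises. Cxcl10 had 1.88, 1.69, 2.16 and 1.39 CPM at day 0 and 17.4, 14.7, 14.1 and 11.1 CPM at day 7, a log2 fold change of 3.01 ± 0.36 (adjusted p = 6.92e-05). For Cxcl9 the values were 1.04, 0.786, 0.635 and 0.335 and 6.12, 11.6, 7.25 and 6.84 CPM, a log2 fold change of 3.51 ± 0.49 (adjusted p = 0.000206). Both lay clear of day 0 in every library. The wider interferon-stimulated list did not share this: 5 of 29 members were higher and 1 lower, with a median log2 fold change of 0.08. The covariate fit gave 2 higher. Leaving out day 0 replicate 1 gave 3 higher, day 0 replicate 4 gave 1, day 7 replicate 1 gave 1 and day 7 replicate 4 gave 2. Isg15, a ubiquitin-like antiviral protein, rose from 10.3 ± 2.02 to 21.97 ± 5.97 CPM (adjusted p = 0.0168), but was not called without day 0 replicate 4 or day 7 replicate 1. Cxcl3 and Cxcl5, neutrophil attractants that bind Cxcr2, were low and rose, from 0.3002 ± 0.163 to 1.55 ± 0.5401 CPM and from 0.329 ± 0.224 to 1.96 ± 0.403 CPM. Ppbp, a chemokine stored in platelets, was the member that fell, by 1.33 ± 0.47 on the log2 scale (adjusted p = 0.0495), and of the 8 libraries day 7 replicate 4 was the single one that could be left out without losing the call.

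Chemokine receptors had 3 of 22 higher and 4 lower. Ackr1, a chemokine-binding receptor of venules and red cells, rose from 0.315 ± 0.281 to 1.72 ± 0.618 CPM (adjusted p = 0.00905), a call lost in the covariate fit. Ackr3, an endothelial scavenger of Cxcl12, rose by 0.74 ± 0.15 on the log2 scale (adjusted p = 0.0028), while Ackr4, a scavenger of Ccl19 and Ccl21, fell by 1.79 ± 0.49 (adjusted p = 0.0156), a call lost without day 7 replicate 2 and in the libraries of lower share.

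Interleukins and haematopoietic cytokines had more members lower than higher. Of 23 tested 2 were higher and 5 lower, with 3 and 4 in the libraries of lower share, the higher count, a share close to that of all genes, was 4 without day 7 replicate 4, and the lower count was 3 in the covariate fit. Lif, a cytokine of the interleukin-6 family, had 3.43, 5.44, 3.43 and 5.24 CPM at day 0 and 45.4, 55.3, 31.4 and 17.8 CPM at day 7, a log2 fold change of 3.09 ± 0.29 (adjusted p = 1.74e-05). The gap between the days was wide for Lif, although day 7 replicate 4 was below the others. The other member that rose was Il23a, the p19 subunit of interleukin-23, with 0, 5, 3 and 1 counts at day 0 and 28, 20, 6 and 15 counts at day 7 (adjusted p = 0.00758), and it was not called in the libraries of lower share. Il1b, the chief interleukin-1 of neutrophils and macrophages, went the other way, from 57.4, 63.1, 68.5 and 28.6 CPM to 13.6, 24.5, 14.8 and 16.5 CPM, a fall of 1.65 ± 0.31 on the log2 scale (adjusted p = 0.00197). Il1f9, an epithelial and myeloid interleukin-36, fell by 1.76 ± 0.37 (adjusted p = 0.00338). Flt3l, the growth factor of dendritic cells, fell from 16.2, 17.4, 39.7 and 29.9 to 6.06, 4.47, 9.72 and 5.29 CPM, by 2.01 ± 0.35 on the log2 scale (adjusted p = 0.001), and by 1.41 in the libraries of lower share. Day 0 replicates 3 and 4 were the highest for Flt3l, but replicates 1 and 2 were also above day 7. The level of Il6 was low and not called: 4, 1, 6 and 24 counts at day 0 and 28, 64, 22 and 14 counts at day 7 (adjusted p = 0.0553). Il33, an alarmin of type 2 cells, had 133, 161, 123 and 98.5 CPM at day 0 and 338, 299.6, 244 and 256 CPM at day 7 without overlap, and also missed the threshold (log2 fold change 1.14 ± 0.45, adjusted p = 0.0766). Il6, Il23a and Il33 were named after their values were seen, and Il6 and Il33 were called in the libraries of lower share (log2 fold changes 3.45 and 0.93). Tnf, the prototype inflammatory cytokine, had 0.194, 0.967, 0.889 and 1.51 CPM at day 0 and 2.27, 1.395, 0.714 and 0.713 CPM at day 7 (adjusted p = 0.503).

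Growth factors rose more often than they fell, 13 of 44 higher and 2 lower, and 17 and 3 in the libraries of lower share. Gdf15, a stress hormone and p53 target, had 1.81, 1.45, 1.59 and 1.45 CPM at day 0 and 28.6, 21.04, 22.9 and 24.3 CPM at day 7, a log2 fold change of 3.94 ± 0.23 (adjusted p = 2.24e-07). The spread within each day was small for Gdf15 beside the distance between them. Ereg, a ligand of the epidermal growth factor receptor, had 5, 3, 3 and 9 counts at day 0 and 106, 182, 86 and 67 counts at day 7, a log2 fold change of 4.33 ± 0.68 (adjusted p = 0.000521). Inhba, the activin A subunit, rose by 2.85 ± 0.54 on the log2 scale (adjusted p = 0.00185). Igf1, which macrophages and fibroblasts secrete, had 14.05, 20.1, 11.4 and 17.1 CPM at day 0 and 104, 73.2, 81.9 and 72.95 CPM at day 7, a log2 fold change of 2.41 ± 0.20 (adjusted p = 4.42e-06). All 4 day 7 libraries lay above day 0 for these 4 genes. The transforming growth factors themselves gave smaller values: Tgfb1 had a log2 fold change of 0.35 ± 0.14 (adjusted p = 0.0733), Tgfb2 was called at 0.76 ± 0.17 (adjusted p = 0.00484), and Tgfb3, at 0.56 ± 0.15 (adjusted p = 0.0153), stayed under the fold threshold. Bmp2 and Bmp6, bone morphogenetic proteins of endothelium, fell by 0.78 ± 0.23 and 0.66 ± 0.23 on the log2 scale, and neither was called in the libraries of lower share. Bmp2 was also not called without day 7 replicate 1 or 4. Bmp6 lost its call when day 0 replicate 1, 3 or 4, or day 7 replicate 1, 2 or 4, was dropped. Wnt10a, a Wnt ligand, had 0, 1, 0 and 0 counts in the day 0 libraries and 27, 14, 21 and 30 counts at day 7, and Sfrp1, a secreted Wnt antagonist, rose from 24.1 ± 9.97 to 209 ± 53.5 CPM (adjusted p = 0.000132). Wnt7b, a Wnt ligand of type 2 cells, rose by 1.76 ± 0.28 and Wnt7a by 1.46 ± 0.26 on the log2 scale. In the Wnt pathway list as a whole 5 of 21 were higher and 0 lower by edgeR in the fit to all libraries (1 lower by DESeq2 and by voom), and the pathway's feedback gene Axin2 was not among them (32.3 ± 0.523 CPM at day 0, 26.9 ± 3.94 CPM at day 7).

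Acute-phase and antimicrobial proteins included some of the largest rises and the calprotectin falls given above. Of 20 tested 6 were higher and 2 lower, and 5 and 0 in the covariate fit, where S100a8 and S100a9 lost their calls, as they did under glmTreat. Retnla, a resistin-like protein induced by interleukins 4 and 13, had 29.8, 45.2, 44.4 and 48.5 CPM at day 0 and 1019, 787, 612 and 905 CPM at day 7, a log2 fold change of 4.31 ± 0.44 (adjusted p = 2.49e-05). Saa3, a serum amyloid of lung and macrophages, had 3.37, 2.72, 0.889 and 1.17 CPM at day 0 and 50.2, 96.1, 33.3 and 34.2 CPM at day 7, a log2 fold change of 4.72 ± 0.54 (adjusted p = 4.87e-05). Lcn2, the siderophore-binding protein lipocalin-2, rose from 120.3 ± 14.5 to 651 ± 140.4 CPM (adjusted p = 4.6e-05). None of the 3 overlapped between the days. Retnla also stood in the list of alternative activation, where 5 of 11 members were higher and 0 lower. Leaving out day 0 replicate 1, 3 or 4, or day 7 replicate 2, gave 3 higher, as did the covariate fit. Il4ra, the shared receptor chain for interleukins 4 and 13, rose by 0.89 ± 0.16 on the log2 scale (adjusted p = 0.00155). Of 23 complement genes 9 were higher and 0 lower, the C1q chains among them. C3ar1, the receptor for the anaphylatoxin C3a on myeloid cells, rose by 2.501 ± 0.40 on the log2 scale (adjusted p = 0.000554), and C1ra, a C1 protease subunit, by 0.77 ± 0.11 (adjusted p = 0.000288). Targets of NF-kB had 7 of 20 higher and 1 lower. The member lower was the signalling adaptor Traf1, by 1.099 ± 0.35 on the log2 scale (adjusted p = 0.0302), a call lost in the covariate fit and when any library but day 0 replicate 2 or day 7 replicate 4 was left out. The rises were led by Tnip3, an inhibitor of NF-kB signalling, at a log2 fold change of 2.84 ± 0.31, and Bcl3, a nuclear NF-kB cofactor, at 1.33 ± 0.17, while the feedback inhibitor Nfkbia was not called (164 ± 44.6 CPM at day 0, 139 ± 27.3 CPM at day 7).

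**Figure D3:**
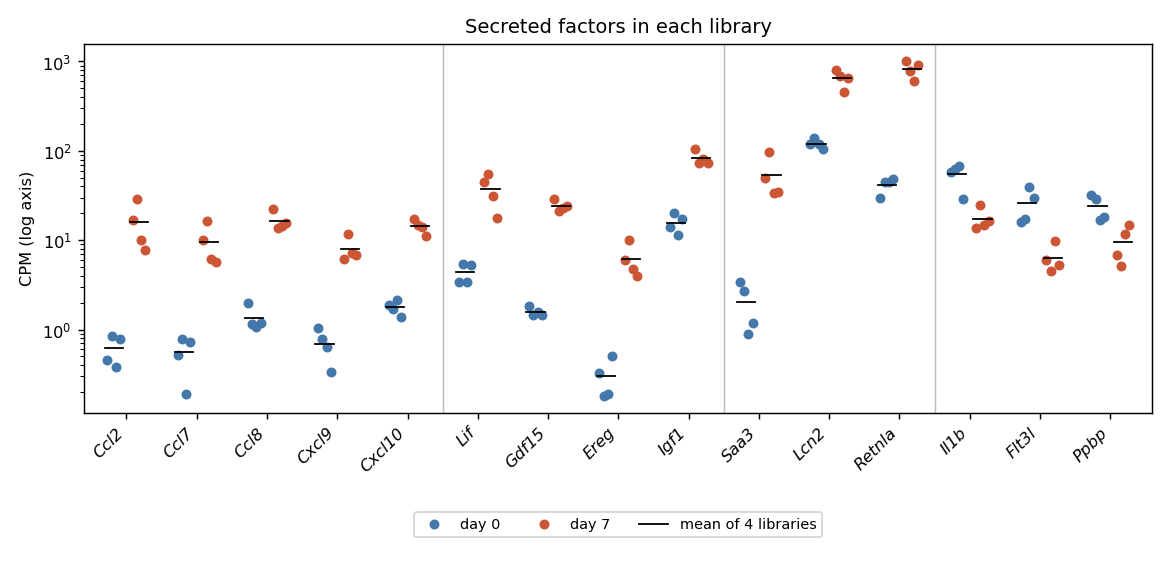
Levels of secreted factors in each of the 4 libraries of day 0 (blue) and day 7 (red), in CPM on a log axis, with a bar at the mean of each day. The chemokines, growth factors and acute-phase proteins of the first 3 blocks lie higher at day 7 and Il1b, Flt3l and Ppbp of the last block lie lower, with no overlap for any of the 15 genes.

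In the epithelium, genes of the transitional alveolar state rose, while the surfactant genes of type 2 cells were not called. The transitional list had 13 of 18 members higher and 0 lower, with a median log2 fold change of 1.31, and 15 higher in the libraries of lower share. Cldn4, a tight junction claudin, had 5.95, 5.805, 5.33 and 3.96 CPM at day 0 and 107, 74.4, 51.2 and 48.04 CPM at day 7, a log2 fold change of 3.74 ± 0.42 (adjusted p = 4.6e-05). Sprr1a, a small proline-rich protein of stressed epithelium, had 1.23, 0.847, 0.508 and 0.279 CPM at day 0 and 33.9, 51.2, 21.5 and 22.7 CPM at day 7, a log2 fold change of 5.501 ± 0.38 (adjusted p = 5.7e-07). Every day 7 library was above every day 0 library for both. The keratins Krt8 and Krt18, partners in the filaments that name this state, rose from 219 ± 37.1 to 551 ± 98.9 CPM and from 105 ± 14.2 to 273 ± 52.9 CPM. Sfn, a 14-3-3 protein of the G2 checkpoint, rose by 2.398 ± 0.28 on the log2 scale (adjusted p = 6.13e-05). At day 14, 0 of these members were higher and 1 was lower than at day 7. That member was Sprr1a, at 10.3 ± 0.909 CPM at day 14, lower by 1.65 ± 0.29 on the log2 scale (adjusted p = 0.00725). In the covariate fit 0 were lower and 1 was higher, and without day 14 replicate 1 the count lower was 2.

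Of 16 type 2 markers 0 were called by edgeR in the fit to all libraries (2 at an unadjusted p under 0.05, 1 by DESeq2 and 0 by voom), and 1 was higher and 1 lower in the libraries of lower share. Sftpb, the surfactant protein that spreads the lipid film, had 4426, 3909, 5046 and 4601 CPM at day 0 and 4759, 4857, 4231 and 4771 CPM at day 7, with overlap. Sftpa1, a collectin of surfactant, was lower in every day 7 library, 2125 to 3058 CPM against 3873 to 4363 CPM, but missed the threshold (log2 fold change -0.69 ± 0.28, adjusted p = 0.0829). Type 1 cell genes had 2 of 15 higher and 2 lower. Hopx, a homeodomain protein of type 1 cells, fell by 0.77 ± 0.24 on the log2 scale (adjusted p = 0.03). Cav1, which coats the caveolae of type 1 and endothelial cells, fell by 0.597 ± 0.17 (adjusted p = 0.0198). Both lost their call when day 0 replicate 1 or day 7 replicate 2 was left out, and Hopx also with day 0 replicate 3 or day 7 replicate 1 or 4 out. The higher count was 1 without day 0 replicate 2, 3 or 4 or day 7 replicate 1, 3 or 4. Krt7, a simple epithelial keratin, rose by 1.004 ± 0.20 (adjusted p = 0.00279).

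Genes of club cells, the secretory cells of the bronchioles, were lower in part, 4 of 12 members lower and 0 higher, with 6 lower in the libraries of lower share and 2 without day 7 replicate 2. Scgb1a1, the club cell secretory protein, had 24634, 29634, 31291 and 25996 CPM at day 0 and 9735, 8844, 8066 and 10297 CPM at day 7, a fall of 1.59 ± 0.33 on the log2 scale (adjusted p = 0.00356). Scgb3a2, another secretoglobin, overlapped between the days (462 to 719 CPM at day 0, 479 to 777 CPM at day 7). Multiciliated cell genes had 1 of 18 lower at day 7, 2 by DESeq2 and voom and 0 in the covariate fit. The count was 0 without day 0 replicate 2 or 3 or day 7 replicate 1, 2 or 3, and 2 without day 7 replicate 4. Foxj1, their master regulator, had 74.5 to 106 CPM at day 0 and 97.4 to 168 CPM at day 7. At day 14, 13 of the same 18 genes were lower than at day 7, 0 in the covariate fit. Leaving out day 7 replicate 4 or day 14 replicate 2 gave 2, and day 14 replicate 3 gave 4.

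Drug-metabolizing enzymes, most of them abundant in club cells, type 2 cells and lung endothelium, had the highest share of members lower of the lists after the clock genes. Of 23 tested 13 were lower and 1 was higher, with a median log2 fold change of -0.78, against 15 and 1 in the libraries of lower share. The count lower was 11 in the covariate fit and 3 under glmTreat. Cyp2f2, the naphthalene-activating cytochrome of club cells, had 2067, 2238, 1792 and 1791 CPM at day 0 and 693, 678, 770.3 and 1004 CPM at day 7, a fall of 1.33 ± 0.30 on the log2 scale (adjusted p = 0.00531). Aox3, an aldehyde oxidase, had 240.5, 259.9, 223 and 234 CPM at day 0 and 63.1, 65.02, 94.1 and 81.5 CPM at day 7, a fall of 1.66 ± 0.24 (adjusted p = 0.000329). Fmo1, a flavin monooxygenase, fell by 1.49 ± 0.19 (adjusted p = 8.59e-05), and Cyp1a1, the aryl hydrocarbon receptor target, by 1.42 ± 0.37 (adjusted p = 0.0122). All 4 were lower in every day 7 library than in any day 0 library, and Cyp2f2 and Cyp1a1 lost their calls under glmTreat. Gsto1, a glutathione transferase, was the member that rose (log2 fold change 0.83 ± 0.29, adjusted p = 0.0476), and it lost its call whichever of the 8 libraries was left out. Blmh, the hydrolase that inactivates bleomycin, had 41.9, 39.9, 40.4 and 40.1 CPM at day 0 and 59.1, 55.2, 53.2 and 52.4 CPM at day 7. The days did not overlap for Blmh, but its log2 fold change of 0.44 ± 0.09 (adjusted p = 0.00348) was under the fold threshold. At day 14, 15 of the enzymes were lower than at day 7, 7 in the covariate fit, 1 under glmTreat and 9 if day 7 replicate 4 or day 14 replicate 2 was dropped. Of the club cell list 4 of 12 members were lower, as given above, and most of its summed level of 29302 to 35514 CPM at day 0 and 10760.2 to 14098 CPM at day 7 was Scgb1a1 alone. The part of cell loss in the enzyme counts was not tested.

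**Figure D4:**
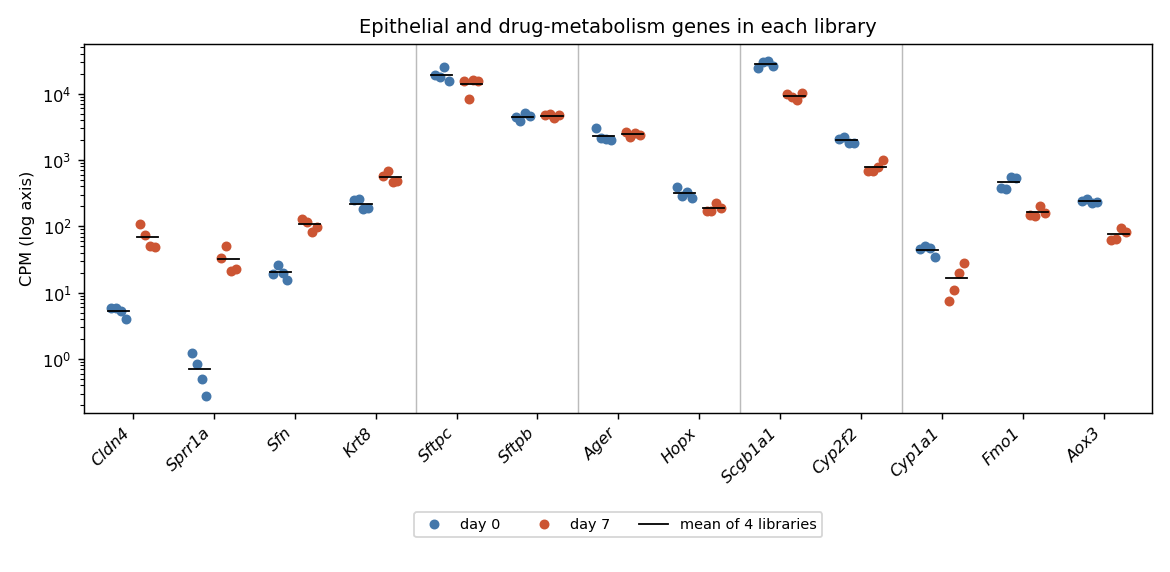
Levels of epithelial and drug-metabolism genes in each of the 4 libraries of day 0 (blue) and day 7 (red), in CPM on a log axis, with a bar at the mean of each day. Cldn4, Sprr1a, Sfn and Krt8 lie higher at day 7, Sftpc, Sftpb and Ager overlap, and Hopx, Scgb1a1, Cyp2f2, Cyp1a1, Fmo1 and Aox3 lie lower without overlap.

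Genes of dividing cells had the highest share of called members of the 55 lists. Of 39 members 36 were higher and 0 lower, with a median log2 fold change of 1.91, 34 in the libraries of lower share and 30 in the covariate fit. The members not called were E2f1, Mcm4 and Mcm7. Mki67, the proliferation antigen Ki-67, had 13.3, 21.2, 11.05 and 13.3 CPM at day 0 and 70.6, 58.6, 74.8 and 82.3 CPM at day 7, a log2 fold change of 2.28 ± 0.27 (adjusted p = 5.76e-05). Top2a, the topoisomerase that untangles replicated chromosomes, had 12.3, 16.7, 8.698 and 7.53 CPM at day 0 and 72.7, 48.3, 66.02 and 77.1 CPM at day 7, a log2 fold change of 2.54 ± 0.30 (adjusted p = 6.35e-05). The mitotic cyclin Ccnb1 rose by 2.84 ± 0.35 and the spindle factor Tpx2 by 2.58 ± 0.30 on the log2 scale. The 4 day 7 libraries lay above day 0 for all of these. The summed level of the list was 356 to 416 CPM at day 0 and 887 to 1072 CPM at day 7, and which cell types divided cannot be read from whole tissue.

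Mitotic genes are known to share promoter elements, the CCAAT box bound by NF-Y and the cell cycle genes homology region (CHR) bound by the DREAM complex. For genes that moved together, the 150 bases before the start are printed for 4 members. These are the called members with the largest rise that had a promoter entry and whose stretch touched no annotated exon. Members on 1 chromosome were left out of this choice. Bases are from RefSeq on GRCm38.p6, 5′ to 3′ on the strand of the gene. Capitals mark the letters CCAAT or TTTGAA on either strand.
Top2a, chr11:99024190-99024339, minus strand: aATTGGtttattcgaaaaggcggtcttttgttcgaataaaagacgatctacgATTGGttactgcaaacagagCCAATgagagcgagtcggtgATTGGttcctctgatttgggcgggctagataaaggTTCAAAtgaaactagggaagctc
Cenpf, chr1:189688087-189688236, minus strand: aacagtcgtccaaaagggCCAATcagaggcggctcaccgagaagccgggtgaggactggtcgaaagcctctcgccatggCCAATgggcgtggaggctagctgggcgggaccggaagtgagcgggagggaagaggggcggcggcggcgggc
Birc5, chr11:117849087-117849236, plus strand: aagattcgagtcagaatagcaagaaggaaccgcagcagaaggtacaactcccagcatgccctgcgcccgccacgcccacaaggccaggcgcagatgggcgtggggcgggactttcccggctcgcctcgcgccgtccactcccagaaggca
Ccnb2, chr9:70421555-70421704, minus strand: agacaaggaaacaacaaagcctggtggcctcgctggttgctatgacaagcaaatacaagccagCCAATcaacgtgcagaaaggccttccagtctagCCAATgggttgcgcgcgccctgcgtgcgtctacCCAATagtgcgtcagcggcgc
Top2a held 5 matches, 4 of the CCAAT box and 1 of the CHR letters. The stretch of Cenpf, a kinetochore protein, held 2 CCAAT matches, and that of Ccnb2, a mitotic cyclin, held 3. Birc5, the mitotic and apoptosis regulator survivin, held none, which says only that these letters were not in this window. Cenpf, Birc5 and Ccnb2, named here for their promoters after their values were seen, rose by 2.49 ± 0.35, 2.39 ± 0.28 and 2.34 ± 0.24 on the log2 scale. Among the 250 bases before the first listed start of 27025 genes, 34.5% held CCAAT, 16.3% held TTTGAA and 5.73% held both. The table held an entry for 31 of the 39 members, too few for a share of the list to be given, and a match is a description of the letters and not a site.

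Targets of p53, the transcription factor that answers DNA breaks, rose in part. Of 24 tested 11 were higher and 0 lower, with a median log2 fold change of 0.47 and the same count of 11 in the libraries of lower share. The count lower was 2 by DESeq2, 1 in the covariate fit, 2 without day 0 replicate 1 or 2, and 1 without day 7 replicate 1 or 3. Cdkn1a, the cell cycle inhibitor p21, had 129, 153, 71.7 and 112 CPM at day 0 and 423, 442, 292 and 517 CPM at day 7, a log2 fold change of 1.84 ± 0.21 (adjusted p = 4.82e-05). Ccng1, cyclin G1, had 144, 139, 102 and 105 CPM at day 0 and 500.3, 486, 369.8 and 505 CPM at day 7, a log2 fold change of 1.92 ± 0.24 (adjusted p = 8.48e-05). Psrc1, a spindle protein, rose by 2.96 ± 0.18 (adjusted p = 2.24e-07), and Phlda3, an inhibitor of Akt, by 1.79 ± 0.14 (adjusted p = 3.04e-06). No library of these genes crossed between the days. Mdm2, the ubiquitin ligase that removes p53, had a log2 fold change of 0.44 ± 0.10 (adjusted p = 0.00524), under the fold threshold. Cdkn1b, the inhibitor p27 of resting cells, fell from 159.7 ± 18.2 to 92.5 ± 9.15 CPM (adjusted p = 0.000656), and Cdkn2a, the p16 and p19Arf locus, was at 0.4298 ± 0.302 CPM at day 0 and 0.935 ± 0.149 CPM at day 7 (adjusted p = 0.137). Of 30 DNA repair genes 9 were higher and 1 lower. Brca1, a scaffold of double-strand break repair, rose by 1.85 ± 0.29 on the log2 scale (adjusted p = 0.000478). Ddb2, a damage sensor of nucleotide excision repair, fell by 1.35 ± 0.25 (adjusted p = 0.00151).

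Matrix genes were higher in part at day 7. Of 23 genes of fibrillar collagens and their maturation 14 were higher and 0 lower, with 13 higher in the libraries of lower share and 7 in the covariate fit. Col3a1, the collagen of early scar, had 421, 525, 316 and 405 CPM at day 0 and 2030.0, 1973, 1720.0 and 2105 CPM at day 7, a log2 fold change of 2.23 ± 0.28 (adjusted p = 8.55e-05). P4ha3, a prolyl hydroxylase subunit, rose by 2.73 ± 0.40 (adjusted p = 0.000284). Activated fibroblast genes had 10 of 18 higher and 0 lower. Tnc, the injury matrix protein tenascin-C, had 6.47, 12.2, 8.44 and 12.3 CPM at day 0 and 236, 199, 170.5 and 273 CPM at day 7, a log2 fold change of 4.47 ± 0.48 (adjusted p = 4.17e-05). Timp1, an inhibitor of metalloproteinases, had 7.44, 6.71, 4.57 and 6.36 CPM at day 0 and 119.7, 196, 68.8 and 97.6 CPM at day 7, a log2 fold change of 4.26 ± 0.49 (adjusted p = 5.04e-05). Both were raised in all 4 day 7 libraries. By contrast Cthrc1, a marker of the most fibrogenic fibroblasts, was not called, at 4.21, 3.08, 2.98 and 2.45 CPM at day 0 and 9.402, 3.18, 6.43 and 9.51 CPM at day 7 (adjusted p = 0.151), and Postn, the matricellular protein periostin, had a log2 fold change of 0.39 ± 0.24 (adjusted p = 0.265).

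Matrix proteases and their inhibitors had 9 of 19 higher and 1 lower, and 12 and 2 in the libraries of lower share. Mmp10, stromelysin-2, had 0 counts in every day 0 library and 32, 34, 15 and 6 counts at day 7, at least 6.67-fold higher against a floor of 3 counts per day 0 library. Adamts4, an aggrecan-cutting protease, had 1.55, 1.51, 0.698 and 0.669 CPM at day 0 and 18.6, 29.8, 12.6 and 24.8 CPM at day 7, a log2 fold change of 4.27 ± 0.36 (adjusted p = 4.42e-06). Mmp2, gelatinase A of fibroblasts, rose from 118 ± 17.2 to 380.4 ± 26.7 CPM (adjusted p = 8.48e-05), while Mmp9, gelatinase B of neutrophils, fell by 1.11 ± 0.32 on the log2 scale (adjusted p = 0.0197) with overlap between the days, a call lost without day 0 replicate 2 or day 7 replicate 1. Fibrinolysis and clotting genes had 7 of 18 higher, 3 if either day 0 replicate 3 or day 7 replicate 1 was dropped and 2 in the covariate fit. Plau, the urokinase plasminogen activator, rose by 2.02 ± 0.33 (adjusted p = 0.000637). The TGF-beta response list had 10 of 20 higher and 2 lower, 6 and 2 in the covariate fit and 2 and 0 under glmTreat. Ltbp2, a latent TGF-beta binding protein family member, rose by 1.47 ± 0.18 (adjusted p = 8.48e-05) and Itgb6, the chain of the integrin that frees latent TGF-beta on epithelium, by 1.29 ± 0.28 (adjusted p = 0.00421). Nox4, an NADPH oxidase that TGF-beta induces in fibroblasts, was one that fell, from 125, 111, 114 and 109 CPM at day 0 to 57.8, 61.6, 68.8 and 74.1 CPM at day 7, by 0.81 ± 0.11 on the log2 scale (adjusted p = 0.000183). No library of Nox4 overlapped.

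Some capillary endothelial genes were lower and some genes of venous and activated endothelium higher, and most members of these lists were not called. Aerocytes, the gas-exchange capillary cells, had 3 of 12 members lower, and general capillary cells 4 of 13, with 0 higher in either list by edgeR in the fit to all libraries (1 aerocyte member without day 7 replicate 4), 4 and 4 lower in the libraries of lower share, and 4 and 1 in the covariate fit. Ednrb, the endothelin receptor that marks aerocytes, had 103, 80.7, 80.8 and 103 CPM at day 0 and 47.6, 53.97, 60.97 and 58.1 CPM at day 7, a fall of 0.74 ± 0.16 on the log2 scale (adjusted p = 0.00514). Hilpda, a hypoxia-induced lipid droplet protein, fell by 1.23 ± 0.19 (adjusted p = 0.000496). The venous and activated list had 7 of 16 higher and 1 lower, 4 and 0 in the covariate fit. The member lower was also not called by voom, nor when any library but day 0 replicate 3 or day 7 replicate 4 was left out. Col15a1, a basement membrane collagen of systemic-type vessels, had 11.1, 16.3, 5.904 and 9.76 CPM at day 0 and 59.02, 39.1, 39.2 and 69.6 CPM at day 7, a log2 fold change of 2.26 ± 0.35 (adjusted p = 0.000428). Lrg1, an angiogenic glycoprotein, rose by 1.76 ± 0.20 (adjusted p = 5.76e-05) and Selp, the platelet and endothelial adhesion molecule P-selectin, by 1.26 ± 0.30 (adjusted p = 0.00764).

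In metabolism, cholesterol genes rose in part. Of 20 genes of cholesterol synthesis and uptake 11 were higher and 0 lower, with a median log2 fold change of 0.62, and 13 higher in the libraries of lower share. Cyp51, lanosterol demethylase, had 31.2, 29.8, 45.1 and 46.5 CPM at day 0 and 95.8, 95.6, 87.1 and 86.03 CPM at day 7, a log2 fold change of 1.26 ± 0.17 (adjusted p = 0.000182). Under glmTreat, which tests against the 1.5-fold change itself, 2 members of the list were called. Glycolysis had 6 of 18 genes higher and 1 lower, 4 and 0 in the libraries of lower share and 3 and 1 in the covariate fit. Ldha, lactate dehydrogenase A, rose from 262 ± 12.5 to 443 ± 27.2 CPM (adjusted p = 0.00195). Among antioxidant genes under NRF2 3 of 16 were higher and 1 lower, 6 higher without day 7 replicate 3. Slc7a11, the cystine importer, rose by 1.900 ± 0.24 (adjusted p = 9.13e-05), and Cat, catalase, fell by 0.65 ± 0.17 (adjusted p = 0.0114), a call lost without day 7 replicate 2. The unfolded protein response had 7 of 18 higher and 1 lower. The rises were led by the chaperone cofactor Sdf2l1 at a log2 fold change of 1.47 ± 0.32, and the member lower was Herpud1, of the machinery that degrades misfolded proteins, by 0.67 ± 0.17 (adjusted p = 0.0109). The libraries of lower share gave 4 higher and 0 lower, and the covariate fit 1 and 0.

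Clock genes were lower in part at day 7, and clock and immediate early genes were spread among the day 0 libraries. Of 15 clock genes 10 were lower and 1 was higher, with a median log2 fold change of -1.12, but 5 were lower in the libraries of lower share and 4 in the covariate fit. The member higher was the repressor Nfil3 (log2 fold change 0.79 ± 0.27, adjusted p = 0.0462), with overlap between the days, a call lost in the libraries of lower share, in the covariate fit, by voom, and when any library but day 7 replicate 1 or 3 was left out. Nr1d1, the repressor REV-ERB alpha, had 179.7, 223, 132 and 147 CPM at day 0 and 74.9, 30.7, 76.9 and 50.1 CPM at day 7, a fall of 1.55 ± 0.30 on the log2 scale (adjusted p = 0.00215) and of 1.81 in the libraries of lower share. For Nr1d1 all day 7 libraries were below all day 0 libraries. Dbp, a clock output factor, had 53.5, 41.3, 141 and 95.8 CPM at day 0 and 29.6, 8.82, 39.8 and 5.71 CPM at day 7, a fall of 1.98 ± 0.52 (adjusted p = 0.0125) and of 1.19 in the libraries of lower share, where it was not called (adjusted p = 0.197). Ciart, a repressor of the clock, had 15.5, 15.6, 50.9 and 37.3 CPM at day 0 and 7.82, 5.19, 10.5 and 10.2 CPM at day 7. Day 0 replicates 3 and 4, the libraries of higher mitochondrial share, were above replicates 1 and 2 for Dbp and Ciart, and below them for Nr1d1. The labels give no hour of collection.

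Immediate early genes, which rise within minutes of a stimulus or of tissue handling, had 4 of 18 lower and 0 higher, and this direction turned in the libraries of lower share, where 0 were lower and 6 were higher. Leaving out day 0 replicate 1 or 2 gave 8 lower, day 0 replicate 3 gave 2, day 0 replicate 4 gave 1 lower and 3 higher, day 7 replicate 1 or 3 gave 1 lower and day 7 replicate 2 gave 2. The count lower was 7 by DESeq2, and 0 by voom and in the covariate fit. Nr4a1, an orphan nuclear receptor, had 77.99, 27.6, 338 and 798 CPM at day 0 and 35.7, 48.1, 50.9 and 33.6 CPM at day 7, a change of -2.88 ± 0.71 on the log2 scale (adjusted p = 0.00894) against -0.34 in the libraries of lower share. Fos, the AP-1 subunit, had 55.99, 38.9, 89.4 and 566 CPM at day 0 and 53.98, 82.9, 42.6 and 86.4 CPM at day 7 (adjusted p = 0.0911). Day 0 replicate 4, the library whose labels disagree, was the highest for both, and the summed level of the list was 2072, 1824, 3387 and 7367 CPM in the day 0 libraries and 2083 to 2818 CPM at day 7.

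**Figure D5:**
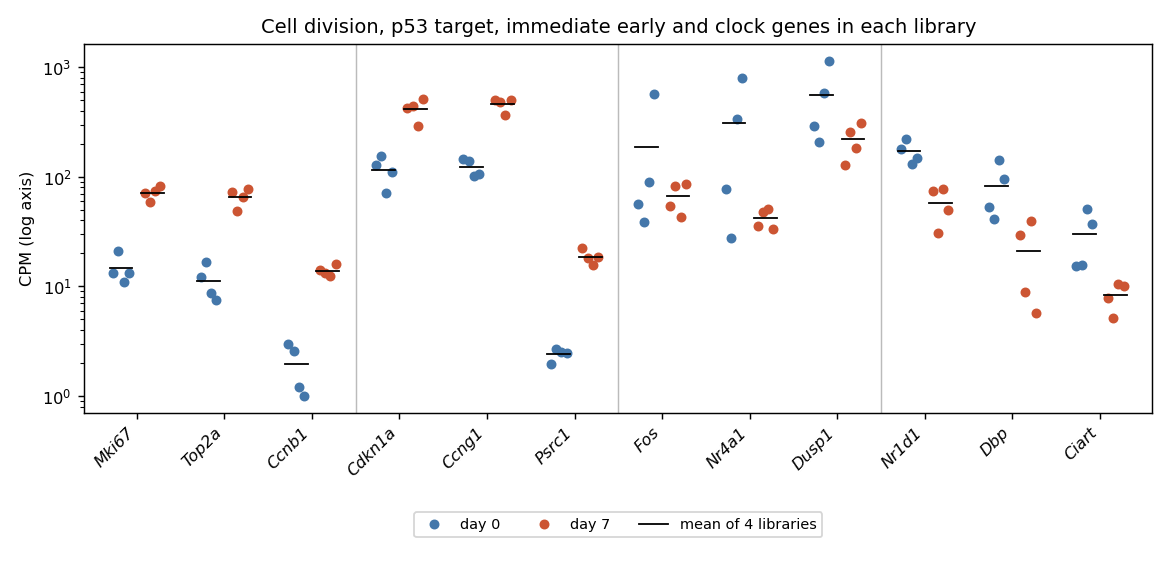
Levels of cell division, p53 target, immediate early and clock genes in each of the 4 libraries of day 0 (blue) and day 7 (red), in CPM on a log axis, with a bar at the mean of each day. The first 6 genes lie higher at day 7 without overlap, Fos, Nr4a1 and Dusp1 overlap and are spread widely at day 0, and Nr1d1, Dbp and Ciart lie lower at day 7.

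Outside the lists, the rule for the largest changes named genes of further kinds. Chl1, a neural cell adhesion molecule, had 3, 6, 0 and 3 counts at day 0 and 434, 616, 313 and 429 counts at day 7, a log2 fold change of 7.06 ± 0.71 (adjusted p = 2.49e-05). Thbs4, the matrix glycoprotein thrombospondin-4, had 1, 5, 4 and 0 and 503, 92, 191 and 454 counts, a log2 fold change of 6.795 ± 0.81 (adjusted p = 6.6e-05), with day 7 replicate 2 the lowest of its day. Both rose by more than the other genes of the rule. Cemip, a hyaluronan-degrading protein of activated fibroblasts, rose from 0.382 ± 0.175 to 12.7 ± 6.35 CPM (log2 fold change 5.04 ± 0.85, adjusted p = 0.000852). Slc26a4, the anion exchanger pendrin of inflamed airway epithelium, had 5.18, 9.61, 2.35 and 2.85 CPM at day 0 and 67.9, 45.3, 45.5 and 45.1 CPM at day 7, a log2 fold change of 3.35 ± 0.59 (adjusted p = 0.00121). Serpina3i, a serine protease inhibitor with close copies on chromosome 12, rose by 3.33 ± 0.43, and Chrna7, a nicotinic acetylcholine receptor subunit, by 3.25 ± 0.52 on the log2 scale. Adamts12, a cartilage-matrix protease, rose by 3.15 ± 0.57 (adjusted p = 0.00137). Among the falls, Hes2, a repressor of the Hes family, had 5.95, 6.29, 5.71 and 5.58 CPM at day 0 and 0.3398, 0.558, 0.989 and 0.357 CPM at day 7, a fall of 3.37 ± 0.34 on the log2 scale (adjusted p = 2.49e-05). It was lower again at day 14, by 2.01 ± 0.44 against day 7 (adjusted p = 0.0177). Colq, the collagen-tailed subunit of acetylcholinesterase, fell by 2.25 ± 0.44 (adjusted p = 0.00236), and Bex2, a brain-expressed X-linked protein, by 2.06 ± 0.34 (adjusted p = 0.000656). By the rule all day 7 libraries of these genes lay beyond all day 0 libraries.

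The covariate fit did not call 28 of the genes called and given with values above. Of these, Bmp2, Bmp6, Cav1, Ccl27a, Ciart, Clec9a, Dbp, Ear2, Herpud1, Hopx, Mmp9, Nr4a1, Ppbp, S100a8, S100a9, Traf1 and Ackr4 were lower at day 7, and Ackr1, Ccl11, Gsto1, Il23a, Il2ra, Isg15, Itgax, Itgb6, Nfil3, Sdf2l1 and Selp were higher.

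Markers of other tissues were read as a check. Cardiac muscle genes summed to 24.01, 45.8, 295 and 199.8 CPM in the day 0 libraries and 40.3, 28.02, 59.2 and 682 CPM in the day 7 libraries, and adipocyte genes to 2.98 to 54.2 CPM at day 0 and 5.21 to 131 CPM at day 7. None of the 8 cardiac and 6 adipocyte members tested was called in the fit to all libraries by edgeR, DESeq2 or voom or had an unadjusted p under 0.05, and day 7 replicate 4 was the highest library for both. Without that library 1 adipocyte member was lower. Each count of day 7 against day 0 given above of at least 5 members of a list in a direction then stayed within 1.5 times of its value, save the interferon-stimulated count, while the day 14 counts of the multiciliated and drug-metabolizing lists moved by more, as given with them. Of 10 mesothelial genes of the lung surface 0 were called in the fit to all libraries by edgeR, DESeq2 or voom, 2 had an unadjusted p under 0.05, and 1 was higher without day 7 replicate 4 or with the replicate block.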

How the data were processed

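Per the labels, libraries of whole mouse lung RNA come from day 0 controls and from 3 times after bleomycin, days 7, 14 and 21. The authors trimmed reads with Trim Galore, aligned them to mm10 with HISAT2 2.1.0 and deposited raw read counts per gene from HTSeq 0.6.0, with no normalization. Reads with several alignments were not counted, so near-identical genes are uncertain. The kit did not mark strand, so overlapping antisense genes could not be told apart, and the annotation release was not given in the sources used here. The series design text names fewer replicates for some days than the titles, which give 4, 4, 4 and 3.

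Symbols came from GENCODE and matched 33267 of 33340 gene IDs. Genes without a symbol held 0.00889% of counts. Counts of all 15 libraries were scaled by TMM and fitted with edgeR 4.0.16 (R 4.3.3, limma 3.58.1) by the quasi-likelihood test with day as the term, after filterByExpr, which left 17457 genes. Calls needed an adjusted p below 0.05 with more than a 1.5-fold change. Total counts of 15652008 to 18020661 per library set the precision, and the common biological coefficient of variation was 22.8%. Alternatives included DESeq2 1.42.0, limma voom, RLE factors, other filters, glmTreat, the mitochondrial share as a covariate, the replicate block and leaving out each library. The procedure was tested on simulated data.

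Groups came from titles. Within 55 gene lists, up to 4 called members of the largest rise and 2 of the largest fall with a mean of at least 1 CPM, and the first 4 members of a list, could be named, plus 10 rises and 10 falls among all genes of at least 5 CPM with no overlap between days. The members and lists were chosen with earlier results of these data known. Nothing in the labels says the libraries came from separate animals, though the study calls them biological replicates. The p-values set the difference between days against the spread among libraries of the same day, estimated over all 15 libraries. Promoter sequences are RefSeq's on GRCm38.p6.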

Additional observations from a re-analysis of the deposited data

Results flagged for a closer look

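In 326 groups of 4 values, 1 library stood apart from the other 3 by Dixon's test in 13, or 3.99%, and chance gives about 1 in 20. In the day 0 libraries these were Ager in replicate 1 (2991 CPM), Ccl8 in replicate 1 (2.01 CPM), Tnfrsf4 in replicate 3 (2.29 CPM), Cdkn1b in replicate 4 (133 CPM), Fos in replicate 4 (566 CPM) and Wnt10a in replicate 2 (0.0605 CPM, 1 count). In the day 7 libraries they were C1qa (279.8 CPM), Ltbp2 (289.98 CPM), Ly6c2 (28.1 CPM) and Slc26a4 (67.9 CPM) in replicate 1, Sftpc in replicate 2 (8189.6 CPM), and Ccng1 (369.8 CPM) and Sftpb (4231 CPM) in replicate 3. For C1qa, Ccng1, Ltbp2 and Slc26a4 the outlying library lay on the same side of day 0 as the other 3. The Fos value belongs to the library whose treatment label and title disagree.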

How the results depend on the processing

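Of 132 called genes given above, 89 kept their call in every alternative run for this comparison and 118 kept it whichever single library was left out. DESeq2 lost 0 of them, voom 3, the libraries of lower mitochondrial share alone 9, the covariate 28 and glmTreat 38. The full fit called 1533 genes higher and 1285 lower, 2818 in all. Without a fold threshold the counts were 2484 higher and 4365 in all, under glmTreat 525, 178 and 703, and with the mitochondrial share in the model 867, 402 and 1269. Members of the lists called numbered 333 (252 higher, 81 lower), 158 (134 and 24) under glmTreat, and 48 lower with the covariate. Day 14 against day 7 gave 1048 (484 higher and 564 lower), 1642 with DESeq2 (810 higher), 14 under glmTreat (6 and 8) and 218 with the covariate (112 and 106). The cause of these shifts was not tested beyond the tighter or looser rule of glmTreat and the missing threshold.

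Leaving out single libraries gave 2053 to 2865 genes for day 7 against day 0 (1151 to 1527 higher and 858 to 1456 lower), and 275 to 327 list members (212 to 246 and 61 to 84). For day 14 against day 7 it gave 340 (without day 7 replicate 4) to 1300 genes, 162 to 642 higher and 163 to 658 lower. The total fell by over 1.5 times, to 522, 464, 340, 348 and 503, without day 7 replicate 1, 3 or 4 or day 14 replicate 2 or 3.

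Uncalled log2 fold changes that changed sign were Ager (-0.067), Fos (0.47), Ly6c2 (-0.038) and Nfkbia (0.13) in the libraries of lower share and Nfkbia (0.088) in the covariate fit. Leaving out single libraries gave -1.87 to 0.092 for Fos, -0.035 to 0.71 for Ly6c2, -0.079 to 0.15 for Scgb3a2 and -0.037 to 0.093 for Sftpb, with the turns at day 0 replicate 4, day 7 replicate 1, day 0 replicates 1 and 4 and day 7 replicate 4, and day 0 replicate 2. The cause was not tested.

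Whether replicate numbers pair the libraries could not be settled from 4 libraries a day. Deviations from the day means of libraries with the same number correlated at 0.171, 0.0264, 0.0406 and 0.221. Libraries with different numbers correlated at -0.243 to 0.0728, and 2 of 4 day 7 libraries correlated best with their own number. With the replicate block 2915 genes were called, 1585 higher and 1330 lower, and 1184 for day 14 against day 7, and the call of Nfil3 was the single named one lost for day 7 against day 0. Ly6g, with 2 to 37 counts per library, was measured at low depth.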
